A study of Mus musculus with 6 samples.

Results

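The 32 genes described here regulate the main forms of cell death: the caspases and the apoptosome, the inflammasome and pyroptosis genes, the necroptosis genes, the BCL2 family, and genes of parthanatos and ferroptosis. They were taken by symbol from a named list, and all 32 are among the 49997 genes counted. RNA was counted in 6 libraries of mouse photoreceptors, 3 that received a guide against Nr2e3 (guide libraries) and 3 that received a non-targeting guide (control libraries). Every animal was a Rosa26-Cas9 mouse, which expresses the nuclease SpCas9 in all its cells, so the control animals carried Cas9 and an injected virus too. The virus was an adeno-associated virus with a 7m8 coat, injected under the retina, and it also carried the red protein mCherry behind a human GRK1 promoter that limits mCherry to photoreceptors. Injection was at postnatal day 21 per the series text and at 4 weeks of age per the treatment protocol. After 6 months, mCherry-positive cells were sorted, about 100000 for each sample, from 2 retinas of 1 animal. Guide replicate 1 was male and guide replicates 2 and 3 were female, whereas all 3 control animals were male.

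The libraries held 24705561 to 33098812 gene counts in the guide group and 32626751 to 34286248 in the control group. Levels are in CPM, gene counts scaled to a common library size with TMM factors, and levels of different genes are compared only as CPM per kilobase of exon (CPM per kb). Nr2e3 itself was at 2090, 1905 and 2242 CPM in guide libraries, against 1755, 1571 and 1505 CPM in control libraries. The groups did not overlap, with a log2 fold change of 0.37 that did not pass the test (SE 0.13, edgeR adjusted p = 0.716). A count over the whole gene does not read insertions or deletions, so it does not check the labels. The photoreceptor label could be checked: 6 rod markers summed to 137408 to 145588 CPM in guide libraries and to 130113 to 164193 CPM in control libraries. Markers of other retinal cells were detected too. Their sums cover other genes, so they are compared between libraries and not between lists. Pigment epithelium markers summed to 2.76, 0.913 and 2.26 CPM in guide libraries, against 15.6, 13.3 and 0.107 CPM in control libraries. In guide and control libraries, bipolar markers summed to 116 to 166 and 129 to 214 CPM. Amacrine markers summed to 57.6 to 261 and 127 to 316 CPM, and Muller glia markers to 797 to 1274 and 676 to 1112 CPM. Clu weighed most in the Muller glia sum, at 633, 1099 and 733 CPM in guide, against 327, 304 and 937 CPM in control libraries. Its log2 fold change was 0.65, whereas those of Glul, Rlbp1, Aqp4, Vim and Dkk3 were -0.42, -0.43, -0.26, -0.65 and -0.58. Those of Slc1a3, Apoe and Sox9 were 0.001, -0.07 and 0.12, and 0 of the 9 were called. The 6 cone markers summed to 15150, 13089 and 11218.5 CPM in guide libraries, against 6616, 6997 and 1297 CPM in control libraries, so that the groups did not overlap. Of these, Gnat2, Pde6c and Pde6h were higher in every guide library. Each had an unadjusted edgeR p under 0.05, with adjusted p of 0.121, 0.0898 and 0.684. The other 3, Opn1sw, Opn1mw and Arr3, overlapped between groups and had lower means in guide libraries (log2 fold change -0.83, -0.66 and -0.36). The part of these cone marker differences in the levels of the 32 genes was not tested. Control replicate 3 stood apart from the other controls. In it, 13 of 13 microglia markers and 8 of 8 markers of reactive glia and injured photoreceptors lay above both other controls, and the cone sum was the lowest of all libraries.

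As background, apoptosis runs through initiator caspases that are switched on at death receptors or, after cytochrome c leaves the mitochondria, on the Apaf1 apoptosome. The BCL2 family controls that mitochondrial step, with guardians such as Bcl2l1 and Mcl1 held in check by BH3-only proteins and with Bak1 as a pore-forming effector. Necroptosis instead uses the kinases Ripk1 and Ripk3 and the membrane-breaking protein Mlkl, and pyroptosis uses inflammasome-activated caspases that cut the pore protein Gsdmd. In parthanatos, overactive Parp1 releases Aifm1 from mitochondria, and in ferroptosis, oxidised membrane lipids kill the cell, which Acsl4 promotes and Aifm2 counters. Apoptosis, necroptosis and parthanatos have all been studied as routes of photoreceptor death in retinal degeneration.

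The question put to these genes was whether the death machinery of photoreceptors differs 6 months after delivery of the Nr2e3 guide. None of the members passed the test. Xiap, which inhibits caspases, stood higher in guide libraries and Aifm2, which protects from ferroptosis, stood lower, each without overlap between groups, and neither difference held after adjustment over all genes. The BCL2 guardians were at closely similar levels in both groups. Transcripts of Ripk3, Mlkl and Zbp1 were near or below the limit of detection in most libraries of both groups.

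Of the 32 members, 25 had enough counts to be tested and 7 did not (Casp12, Casp4, Nlrp3, Ripk3, Mlkl, Zbp1 and Hrk). By the edgeR quasi-likelihood test, with Benjamini-Hochberg adjusted p-values, 0 of the 25 were called higher and 0 lower, where 0.315% of the 17138 genes tested were called higher and 0.0292% lower (0.344% in all). DESeq2 and limma-voom also called 0, where they called 1.58% and 1.04% of all genes. At an unadjusted p under 0.05 there were 2 members by edgeR (5.69% of all genes), 2 by DESeq2 (6.83% of all genes) and 3 by limma-voom (11.5% of all genes). Groups did not overlap for 3 of the 25, against 12.1% of all genes, with 1 member above (6.18% of all genes) and 2 below (5.92%). Log2 fold changes were above 0 for 12 and below 0 for 13 members, with a median of -0.04, beside -0.01 over all genes tested.

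Members at a higher level mostly had narrower intervals. Of 13 members with a mean over 10 CPM in both groups, 11 had a 95% interval of the fold change that lay within 2-fold either way; the exceptions were Casp2, down to 0.483-fold, and Aifm2, down to 0.402-fold. Below that level, Casp6 and Apaf1 also lay within 2-fold. For the other low members the interval was wider, reaching from 0.280 to 24.4-fold for Casp8. A p-value over the threshold for such genes does not show equal levels. In bulk RNA of sorted cells, fewer cells of a type and less RNA per cell cannot be told apart.

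**Figure D1:**
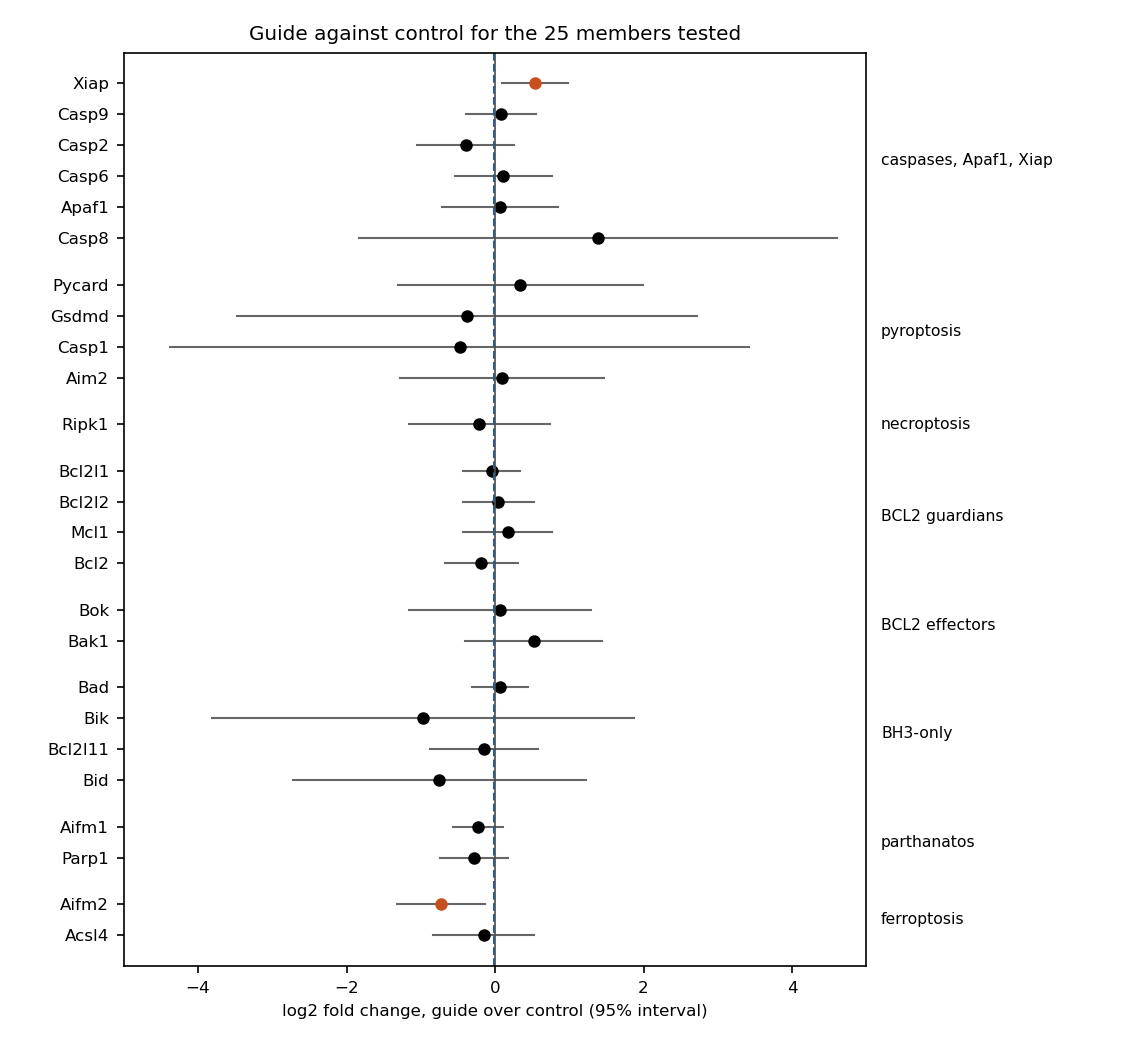
Log2 fold change of guide over control (x axis) for the 25 members tested, grouped by role, with points for the estimate and lines for the 95% interval; the dashed line is the median over all genes tested. Xiap and Aifm2, in orange, had an unadjusted p under 0.05, and the widest intervals belong to low genes such as Casp8, Casp1 and Gsdmd.

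Xiap binds and blocks active caspases and was the most abundant member in both groups, at 55.4 CPM per kb in guide and 38.1 CPM per kb in control libraries. It is an X-linked gene (GRCm38 chromosome X, 42059679 to 42109656). Its level was 577, 613 and 384 CPM in guide libraries, against 366, 382 and 333 CPM in control libraries. Guide replicates 1 and 2 stood well above all controls, and guide replicate 3 lay just above the highest control. The log2 fold change was 0.54 (SE 0.19, edgeR adjusted p = 0.699, 95% interval 1.07 to 1.98-fold, n = 3 each). Guide replicates 2 and 3 are female and the controls male. The male libraries alone gave 0.67, a value that sets 1 guide library against 3 controls, so that its spread comes from the controls only and it says little about sex. With both replicate-3 libraries left out, the log2 fold change was 0.67 with an adjusted p of 0.0917, and adjusted p was 0.212 or more in the other settings.

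Promoter windows are shown for Xiap and Aifm2, the members of smallest p, and for Tnfaip3, the gene of smallest p among the other cell death genes tested. RefSeq gives windows of 300 bases around an annotated start, most of it upstream, on GRCm38.p6, for 29 of the 32 members (Gsdmd, Zbp1 and Bik are not matched). Capitals mark matches on either strand to 5 motifs, and sequences run 5′ to 3′ on the strand of the gene. The NF-kB motif searched was GGGA followed, after any 4 bases, by CC. The core motif of the nuclear receptor Nr2e3 was AAGTCA. The TATA box, where general transcription factors bind, was searched as TATAAA. The interferon-stimulated response element (ISRE) was a repeat of GAAA with any 2 bases between the copies. The motif of the photoreceptor factor Crx was TAATCC.
Xiap, chrX:42068148-42068447, plus strand: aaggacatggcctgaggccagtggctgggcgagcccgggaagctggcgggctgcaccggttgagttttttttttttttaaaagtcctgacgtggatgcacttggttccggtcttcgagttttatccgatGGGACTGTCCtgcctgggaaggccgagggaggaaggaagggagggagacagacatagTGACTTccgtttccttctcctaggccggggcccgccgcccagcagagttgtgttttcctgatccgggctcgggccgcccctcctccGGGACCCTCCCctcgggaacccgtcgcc
Aifm2, chr10:61720399-61720698, plus strand: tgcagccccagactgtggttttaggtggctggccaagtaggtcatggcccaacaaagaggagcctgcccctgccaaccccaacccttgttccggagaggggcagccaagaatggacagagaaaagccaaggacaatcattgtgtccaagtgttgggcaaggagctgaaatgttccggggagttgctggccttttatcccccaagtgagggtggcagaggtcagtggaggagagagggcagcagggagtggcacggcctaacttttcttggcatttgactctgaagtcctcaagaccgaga
Tnfaip3, chr10:19015361-19015660, minus strand: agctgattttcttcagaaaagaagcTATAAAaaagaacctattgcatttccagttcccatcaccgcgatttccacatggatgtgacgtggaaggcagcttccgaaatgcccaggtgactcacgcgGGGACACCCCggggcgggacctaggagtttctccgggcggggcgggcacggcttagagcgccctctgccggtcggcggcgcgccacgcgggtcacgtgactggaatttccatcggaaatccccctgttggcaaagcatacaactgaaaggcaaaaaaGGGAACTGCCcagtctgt
RefSeq has 3 windows for Xiap and 2 for Tnfaip3, 1 for each annotated start, and the first listed is shown. The Xiap and Aifm2 windows shown lie inside the gene models used for levels, which start upstream at 42059679 and 61715263. The Xiap window shown holds the NF-kB motif at position 130 and, overlapping each other on opposite strands, at positions 273 and 274, and an Nr2e3 core motif on the opposite strand at position 187. The Tnfaip3 window shown holds the NF-kB motif at positions 126 and 283 and a TATA box at position 26, and the Aifm2 window holds none of the 5 motifs. Of the other Xiap windows, 1 holds none of the motifs and 1 holds the Nr2e3 core motif and, on the opposite strand, the TATA box, and the other Tnfaip3 window holds the NF-kB motif. Of 32851 windows of this length, 20.7% hold the NF-kB motif, 15.1% the Nr2e3 core motif, 13.6% the TATA box, 7.06% the Crx motif and 3.44% the ISRE. Among the 38 windows of members, 11 hold the NF-kB motif, 5 the Nr2e3 core motif, 1 the TATA box, 0 the Crx motif and 1 the ISRE. These matches describe letters and not binding.

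Of the caspases, Casp9 and Casp6 had means close to those of the control libraries. Casp9, the initiator caspase of the apoptosome, averaged 24.7 ± 4.51 CPM in guide, against 23.4 ± 2.64 CPM in control libraries (SD, n = 3 each). Casp2, an initiator caspase of the DNA damage response, was at 15.3, 13.96 and 20.9 CPM in guide libraries, against 16.0, 20.2 and 29.6 CPM in control libraries. The highest Casp2 level was that of control replicate 3, and the groups overlapped (log2 fold change -0.39, SE 0.28, edgeR adjusted p = 0.995). Casp6, an effector caspase, averaged 4.65 ± 0.724 and 4.30 ± 0.313 CPM in guide and control libraries, and Apaf1, the scaffold of the apoptosome, 6.73 ± 1.47 and 6.40 ± 2.27 CPM.

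Casp8, the death receptor caspase that also restrains necroptosis, had the largest fitted log2 fold change of the members, and it rested on very few counts. Its counts were 33, 9 and 36 in guide libraries, against 0, 1 and 37 in control libraries. All 3 guide libraries lay above control replicates 1 and 2, while control replicate 3 was within the guide range (1.25, 0.391 and 1.06 CPM in guide, against 0, 0.0288 and 0.987 CPM in control libraries). The log2 fold change was 1.39 (SE 1.38, edgeR adjusted p = 0.995). Single libraries moved this value: it was 5.56 without control replicate 3 (adjusted p = 0.228) and 0.82 without control replicate 1, and limma-voom, which weights libraries by quality, gave 4.54 (adjusted p = 0.0960). With 0 and 1 counts in the other controls, such fitted values depend on the prior count and are not bounds. Casp12, a rodent caspase tied to stress of the endoplasmic reticulum, had 1, 2 and 14 counts in guide and 0, 1 and 0 counts in control libraries and was not tested.

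The inflammasome and pyroptosis genes were all low, with means over all 6 libraries of 0.0273 to 0.376 CPM per kb. Pycard, the adaptor that joins sensors to caspase-1, had the highest level of them. It was at 0.757, 2.30 and 1.74 CPM in guide libraries, against 0.540, 0.749 and 2.48 CPM in control libraries. Control replicate 3 was the highest library and the groups overlapped (log2 fold change 0.34, SE 0.71, edgeR adjusted p = 0.995). Gsdmd, the pore protein, was at 0.114, 0.826 and 0.49998 CPM in guide, against 0.444, 0 and 1.41 CPM in control libraries. Casp1, the inflammasome caspase, was above 0 in 1 guide library (21 counts) and in 2 control libraries (16 and 15 counts). Aim2, a sensor of DNA in the cytosol, averaged 0.420 ± 0.0968 CPM in guide, against 0.393 ± 0.0722 CPM in control libraries. The sensor Nlrp3 had 1, 2 and 1 counts in guide and 15, 0 and 2 counts in control libraries, and Casp4, which detects bacterial lipopolysaccharide, had at most 6 counts in any library.

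Of the necroptosis genes, Ripk1 was measurable in every library, whereas Ripk3, Mlkl and Zbp1 had 0 counts in most libraries. Ripk1, a kinase that steers between survival and death, was at 2.08, 1.87 and 3.21 CPM in guide libraries, against 3.36, 1.82 and 3.12 CPM in control libraries. The groups overlapped throughout (log2 fold change -0.21, SE 0.41, edgeR adjusted p = 0.995), and exons of Ripk1 overlap Gm17084 on the same strand and Serpinb6a on the opposite strand. Ripk3, the kinase that activates Mlkl, had 0 counts in each guide library, which allows up to 0.0882 to 0.130 CPM at 3 counts per library, and 0, 0 and 6 counts in control libraries. Mlkl had 11, 0 and 0 counts in guide and 1, 0 and 0 counts in control libraries. Zbp1, a nucleic acid sensor that engages Ripk3, had 0, 0 and 9 counts in guide and 0, 0 and 17 counts in control libraries. No difference in Ripk3, Mlkl or Zbp1 was detectable at this depth.

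**Figure D2:**
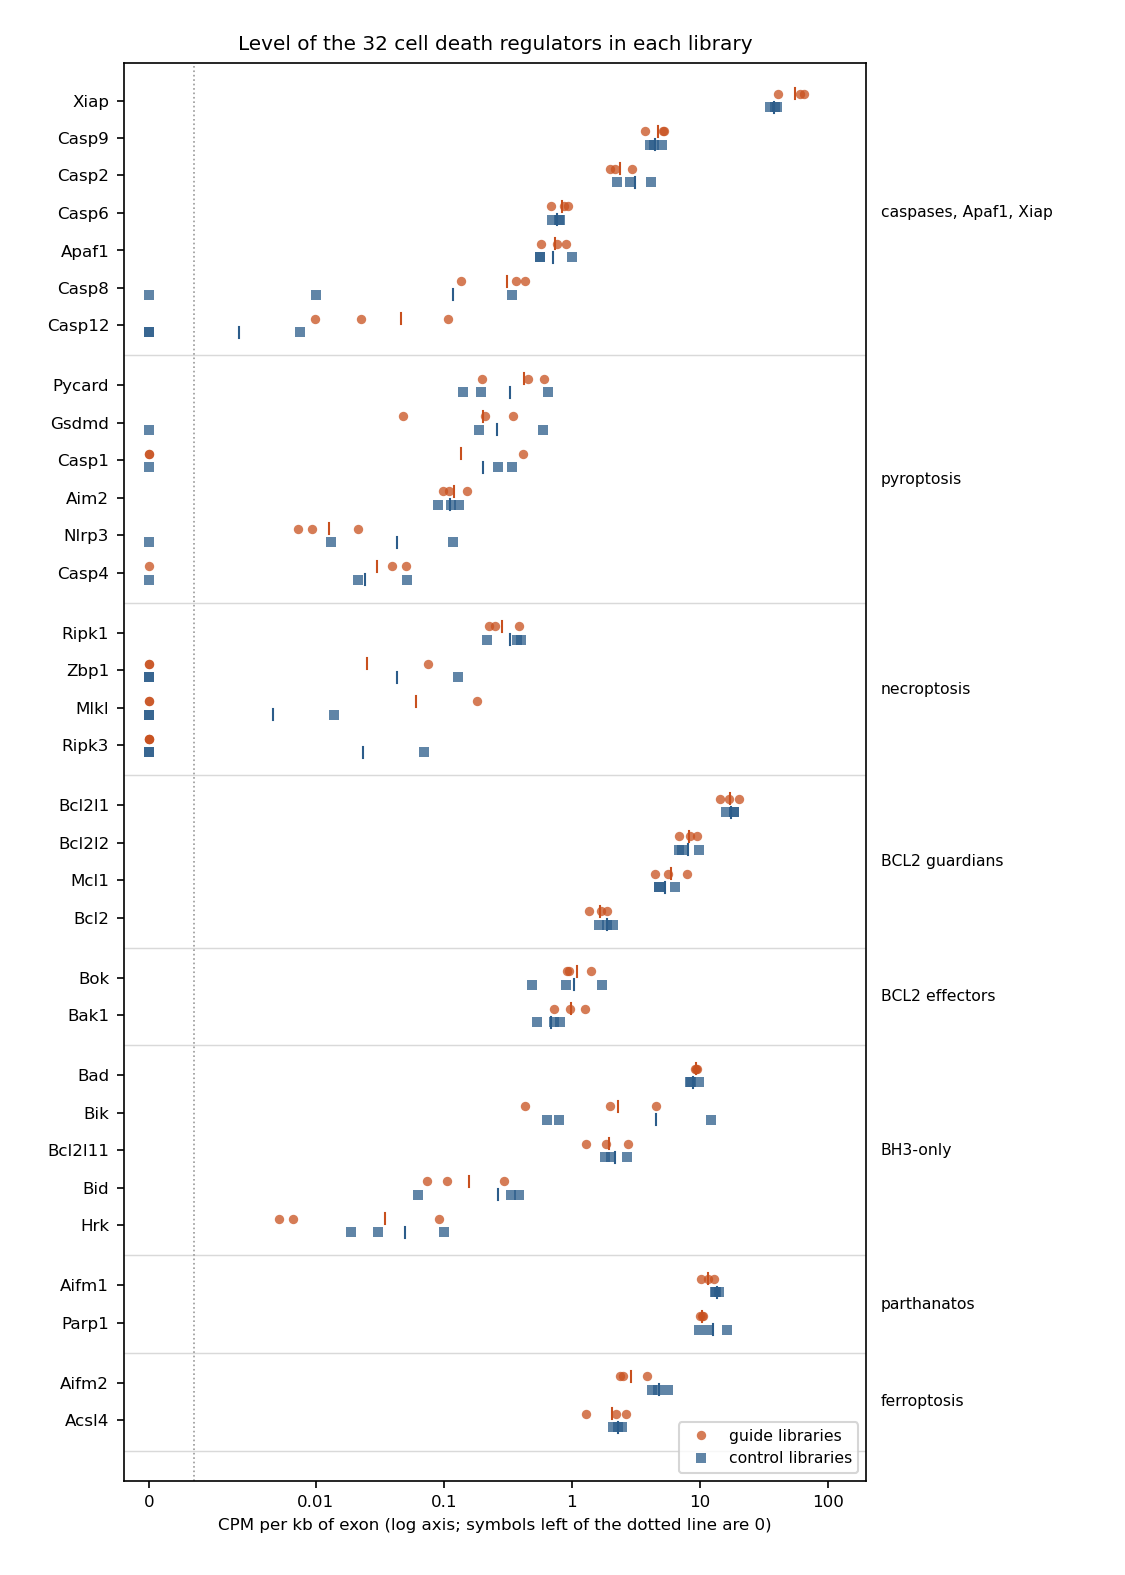
CPM per kb of exon (log x axis, with 0 drawn left of the dotted line) of the 32 members in each library, by role, guide libraries as circles above control libraries as squares, with a bar at each group mean. Xiap is the highest member in both groups at 55.4 CPM per kb in guide and 38.1 CPM per kb in control libraries, and Ripk3, Zbp1 and Mlkl are at 0 in most libraries.

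The BCL2 guardians, which hold the mitochondrial pore shut, had nearly the same means in both groups. Bcl2l1, the second most abundant member per kb, was at 65.8, 77.2 and 92.9 CPM in guide libraries, against 73.3, 84.7 and 84.9 CPM in control libraries. The guide libraries spanned the whole control range, and the 95% interval of the fold change was 0.744 to 1.27 (log2 fold change -0.04, SE 0.16). Mcl1, a short-lived guardian, was at 26.96, 19.3 and 15.4 CPM in guide, against 16.5, 16.3 and 21.8 CPM in control libraries, with the guide libraries again on both sides of the controls (log2 fold change 0.17, SE 0.26). Bcl2 itself was at 15.6, 17.1 and 12.6 CPM in guide, against 14.9, 17.4 and 19.1 CPM in control libraries, which overlapped (log2 fold change -0.18, SE 0.21). Bcl2l2 averaged 37.0 ± 5.99 CPM in guide, against 35.8 ± 7.15 CPM in control libraries, and its exons overlap the gene Gm20521 on the same strand. All 4 had an edgeR adjusted p of 0.995 or 0.996, with intervals between 0.629 and 1.70-fold.

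Per kb, Bcl2l1 was at 17.1 in guide and 17.7 in control libraries, and Bcl2l2 at 8.29 and 8.03. The lowest guardian per kb was Bcl2, at 1.65 (guide) and 1.87 (control). The 2 pore-forming effectors among the members, Bok and Bak1, had lower means than each guardian, though Bok was close to Bcl2. Bax, a further effector, was examined only as context and has no level per kb here. Its mean was 18.2 CPM over the guide libraries and 16.8 CPM over the controls. The levels of Bok and Bak1 therefore do not stand for all pore-forming effectors. Bok averaged 1.09 CPM per kb in guide and 1.04 in control libraries, and Bak1 averaged 0.991 and 0.689. Bak1 was at 2.35, 3.04 and 1.76 CPM in guide libraries, against 1.94, 1.76 and 1.28 CPM in control libraries, with guide replicate 3 within the control range (log2 fold change 0.52, SE 0.40, edgeR adjusted p = 0.995). Bok was at 1.74, 1.70 and 2.59 CPM in guide, against 1.65, 3.20 and 0.907 CPM in control libraries, where the controls alone spanned a wider range than the guide libraries.

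The BH3-only genes, whose proteins antagonise the guardians, split into steady and variable members. Bad, which is silenced by survival kinases, was at 23.4, 23.8 and 24.4 CPM in guide libraries, against 21.7, 25.1 and 21.5 CPM in control libraries. It had the highest level per kb of the BH3-only genes and nearly the same level in every library (log2 fold change 0.07, SE 0.16, edgeR adjusted p = 0.995, interval 0.808 to 1.36-fold); its exons overlap Gpr137 on the opposite strand. Bcl2l11, which encodes Bim, averaged 15.8 ± 5.95 CPM in guide, against 17.5 ± 3.78 CPM in control libraries. Bid, which links death receptors to mitochondria, was at 0.379, 1.04 and 0.265 CPM in guide, against 0.222, 1.38 and 1.201 CPM in control libraries, and its exons overlap Bcl2l13 on the opposite strand. Hrk, a BH3-only gene of neurons, had 1, 12 and 1 counts in guide and 18, 6 and 4 counts in control libraries and was not tested.

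Bik, a BH3-only protein of the endoplasmic reticulum, varied widely between libraries of the same group. It was at 0.681, 7.22 and 3.15 CPM in guide libraries, against 1.02, 1.27 and 19.3 CPM in control libraries. Control replicate 3 was far above every other library, and guide replicate 2 was next (log2 fold change -0.97, SE 1.22, edgeR adjusted p = 0.995). Without control replicate 3 the log2 fold change turned to 1.68 (adjusted p = 0.693). The summed CPM of 13 microglia markers was 38.4, 191 and 129 in guide libraries and 36.0, 38.6 and 325 in control libraries, with no marker at 0 in any library. The sum of 8 markers of reactive glia and injured photoreceptors was 48.2, 115 and 96.1 CPM in guide, against 51.9, 55.3 and 334 CPM in control libraries. Bik and both sums thus ranked control replicate 3 first and guide replicate 2 second, and the part of these cells or states in the Bik level was not tested.

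Members other than Bik were also high in control replicate 3. Among the 25 tested members, 15 were above both other controls in that library and 5 below, against 42.4% and 41.9% of all genes tested. The median log2 ratio of control replicate 3 to the mean of the other controls was 0.26 over the members and -0.0044 over all genes. It was largest for Bik (3.59), Casp8 (1.53), Gsdmd (1.41) and Pycard (1.38), and lowest for Bok (-1.06). Of the members with too few counts for a test, Zbp1 (17 counts) and Ripk3 (6 counts) were highest in control replicate 3. Casp12, Casp4, Nlrp3, Mlkl and Hrk were highest in other libraries. Leukocyte markers summed to 0.565 to 3.06 CPM in guide and 0.461 to 3.26 CPM in control libraries, with 7 of the 8 markers at 0 in at least 1 library. The exception, Ptprc, which marks all leukocytes including microglia, had 26, 13 and 65 counts in guide and 10, 3 and 103 counts in control libraries, highest in control replicate 3.

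**Figure D3:**
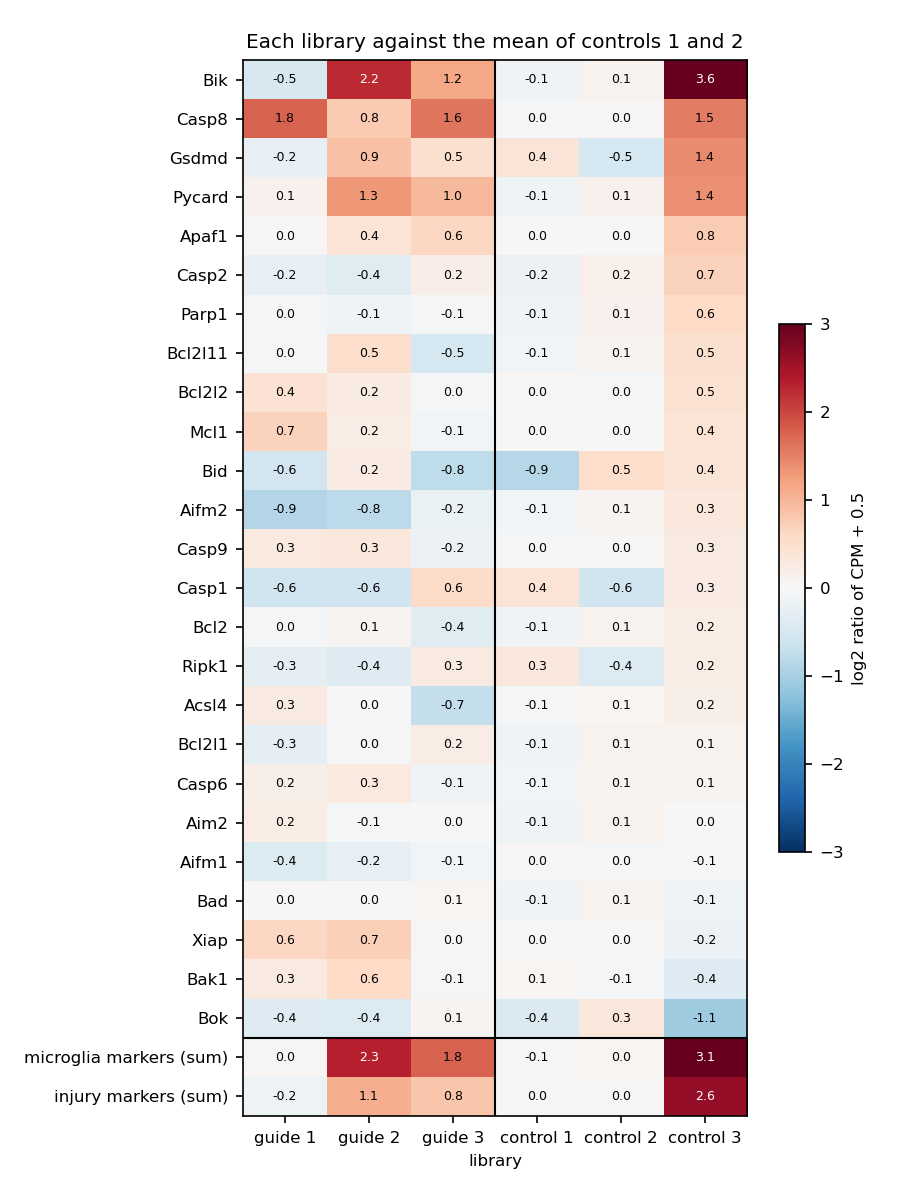
Log2 ratio of CPM + 0.5 in each library (columns, guide libraries left) to the mean of control replicates 1 and 2, for the 25 tested members (rows, ordered by control replicate 3) and for the summed microglia and injury markers; the colour scale ends at 3 either way. Bik stands at 3.6 in control replicate 3 and 2.2 in guide replicate 2, where the microglia sum stands at 3.1 and 2.3.

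Aifm1 and Parp1, the pair that carries parthanatos, were among the 4 most abundant members per kb in both groups. Aifm1, a flavoprotein of mitochondria that moves to the nucleus in this form of death, is X-linked (chromosome X, 48474944 to 48513563). It was at 41.2, 46.4 and 51.8 CPM in guide libraries, against 56.7, 53.6 and 52.6 CPM in control libraries. Each guide library was below each control library, by less than 1 CPM between the nearest pair. The difference did not pass (log2 fold change -0.22, SE 0.14, edgeR adjusted p = 0.995, interval 0.679 to 1.08-fold), and the male libraries alone, 1 guide against 3 controls, gave -0.41. Parp1, which builds poly(ADP-ribose) at DNA breaks, was at 56.0, 53.6 and 55.1 CPM in guide libraries, against 52.2, 62.3 and 86.3 CPM in control libraries. The guide libraries lay close together and the wide control range came from control replicate 3 (log2 fold change -0.29, SE 0.20, adjusted p = 0.995).

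Aifm2, also known as Fsp1, regenerates a lipid-protecting quinone and so holds back ferroptosis, and it had the smallest unadjusted p of the members. It lies on chromosome 10 (61715263 to 61739260) and shares exon sequence with H2afy2 on the opposite strand, over up to 233 bases of 1 exon. It was at 9.84, 10.4 and 15.9 CPM in guide libraries, against 17.4, 19.5 and 23.1 CPM in control libraries. Every guide library was below every control library, with guide replicate 3 closest to the controls. The log2 fold change was -0.73 (SE 0.25, unadjusted p = 0.0219, edgeR adjusted p = 0.682, interval 0.402 to 0.909-fold, n = 3 each). It kept its sign in each of the 17 other settings, from -1.03 to -0.60, and passed in 0 of them, with the lowest adjusted p (0.178) when both replicate-3 libraries were left out. Over the 6 libraries, the genes with the highest Pearson correlation with Aifm2 in log2 level were Pcyox1 (0.997), Lrsam1 (0.994), Gm39272 (0.994), Gpr152 (0.993) and Dhrs3 (0.992); this describes 6 points that include both groups.

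Acsl4, which loads membranes with oxidisable fatty acids and so promotes ferroptosis, is also X-linked (chromosome X, 142317993 to 142390535). It was at 14.5, 12.003 and 7.00 CPM in guide libraries, against 11.4, 12.4 and 13.4 CPM in control libraries. Guide replicate 3 was the lowest library and guide replicate 1 the highest, so the groups overlapped (log2 fold change -0.15, SE 0.29, edgeR adjusted p = 0.995).

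**Figure D4:**
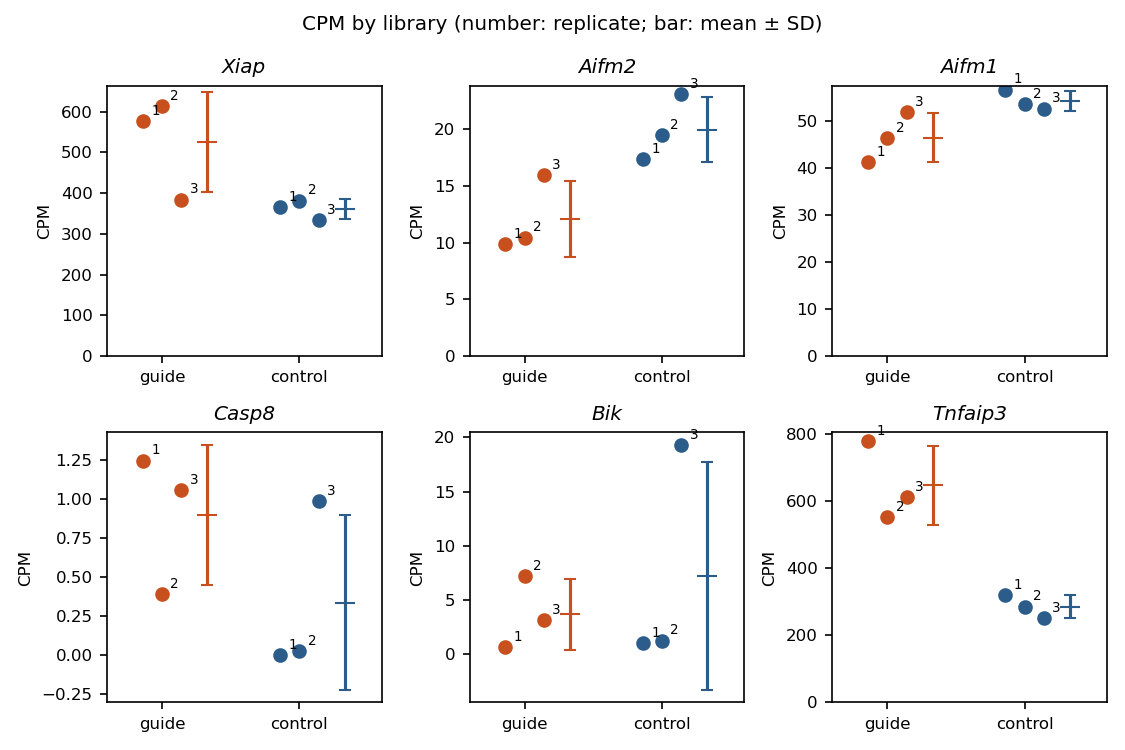
CPM (y axis) by library of 5 members and of Tnfaip3, with replicate numbers beside the points and mean ± SD (n = 3) to their right, guide libraries left. Guide and control libraries do not overlap for Xiap, Aifm2, Aifm1 and Tnfaip3, whereas control replicate 3 stands within the guide range for Casp8 (0.987 CPM) and above it for Bik (19.3 CPM).

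Beyond the members, 51 other cell death genes in the count files were examined as context, of which 39 were tested. They include partners such as Bax, Fadd, Cflar, Gpx4 and the tumour necrosis factor pathway. By edgeR 0 were called higher and 0 lower (0.344% of all genes in either direction), 3 had an unadjusted p under 0.05 (5.69% of all genes), and the median log2 fold change was 0.08. Log2 fold changes were above 0 for 23 and below 0 for 16 of them. Groups did not overlap for 8 of the 39 (12.1% of all genes), with 7 above (6.18%) and 1 below (5.92%).

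Tnfaip3, which encodes the ubiquitin editor A20 that damps NF-kB signalling and protects from death by tumour necrosis factor, lay at the threshold. It was at 779, 552 and 614 CPM in guide libraries, against 321, 286 and 252 CPM in control libraries. Every guide library was above every control library by more than the spread within either group (log2 fold change 1.18, SE 0.17, edgeR adjusted p = 0.0505). Its level per kb was 89.7 in guide and 39.6 in control libraries, above that of any of the 32 members in both groups. Of 17 other settings 5 called it, among them DESeq2 (adjusted p = 1.37e-06) and limma-voom (0.00469), while leaving out any 1 library gave 0.0748 to 0.333.

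Cflar, the inhibitor of Casp8 at death receptors, was at 72.0, 68.6 and 56.8 CPM in guide libraries, against 42.5, 54.4 and 45.1 CPM in control libraries. The groups did not overlap, with guide replicate 3 just above control replicate 2 (log2 fold change 0.48, SE 0.16, edgeR adjusted p = 0.670). Slc3a2, a subunit of the cystine importer that feeds glutathione synthesis, was at 51.4, 50.2 and 49.1 CPM in guide libraries, against 45.4, 36.8 and 40.2 CPM in control libraries, without overlap (log2 fold change 0.30, SE 0.14, edgeR adjusted p = 0.926). Cflar and Slc3a2 passed the test in 0 of the 17 other settings.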

How the data were processed

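The authors deposited unnormalised read counts by gene symbol, in 1 table for each library. The submitters' processing notes name cutadapt, HTSeq 0.12.4, STAR 2.7.3a and DESeq2 1.42.0, and build GRCm38 (mm10). Annotation and strand setting were not given in the sources used here, so how reads of overlapping genes were assigned is not known. Entries that name no gene (21.6 to 23.7% of counts) were left out. They include reads counted as ambiguous between genes (1.84 to 2.01% of counts).

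The comparison of guide with control libraries used edgeR 4.0.16 under R 4.3.3 (TMM, filterByExpr with min.count 10, glmQLFit and glmQLFTest, group as the only term), with Benjamini-Hochberg adjusted p under 0.05 over all genes tested. SE is the absolute log2 fold change over the square root of F. The 95% intervals use the same fit. DESeq2 1.42.0 and limma 3.58.1 (voom) were alternatives. The edgeR script was tested on simulated data. Exon lengths, coordinates and overlaps come from GENCODE M21 (GRCm38). The intervals include the spread between libraries, whereas floors of 3 counts cover counting error only. The 3 samples of a group are separate animals, and no pair within a group looked like 1 library deposited in duplicate (chi-square per degree of freedom 15.7 to 151).

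The members and lists were chosen with earlier results of these data known. Values per library are given for the 12 members of smallest p and the most abundant member per kb of each role, and for the 4 other cell death genes of smallest p, of which 1 is not reported here; other values named were chosen after they were seen. Settings tried were other size factors, DESeq2, limma-voom, other count filters, robust estimation, a replicate block, sex as a term, males only, and each library or both replicate-3 libraries left out. For the 4 other cell death genes, these settings were chosen after seeing the data.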

Additional observations from a re-analysis of the deposited data

How the results depend on the processing

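In all 17 settings 0 members were called, while the calls over all genes moved: from 54 higher and 5 lower to 201 and 70 with DESeq2, 160 and 19 with limma-voom, 130 and 25 without a count filter, 6 and 0 with sex as a term, and 0 and 0 in males (1752 at unadjusted p under 0.05, with 1 guide library). Leaving out single libraries gave 14 to 80 higher (lowest without control replicate 1, highest without control replicate 3) and 0 to 9 lower. Replicate numbers name different animals. Deviations of same-numbered libraries correlated at 0.16, -0.14 and 0.11, and those of differently numbered libraries at -0.21 to 0.17. With 3 libraries in each group, these values cannot show whether same-numbered libraries share a batch. Entries for multiple alignments were 4.62% in guide replicate 3 and 4.23% in control replicate 3. They were 5.56 to 6.25% in the other libraries, and the cause was not tested. With the replicate block 31 genes were higher, 1 lower and 0 members were called. The count of other cell death genes called was 1, Tnfaip3, with DESeq2 size factors, DESeq2, limma-voom, no count filter and a mean of at least 1 CPM, against 0 otherwise. The members' median was -0.23 with sex as a term, -0.29 in males (1 guide library) and 0.18 without both replicate-3 libraries. The medians over all genes tested were -0.033, -0.052 and 0.010 in these settings.

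Log2 fold changes of members changed sign in 45 of 419 values, none past the threshold, and the cause was not tested. With limma-voom these were Casp1 (0.016), Gsdmd (2.68), Ripk1 (0.057), Bok (-0.32), Bad (-0.0015) and Bik (0.54); with sex as a term, Apaf1 (-0.30), Pycard (-0.73), Bok (-0.14) and Acsl4 (0.22); in males, Apaf1 (-0.31), Pycard (-0.74), Bok (-0.15) and Acsl4 (0.21); without both replicate-3 libraries, Gsdmd (1.08), Bcl2 (0.023), Bok (-0.49), Bcl2l11 (0.28), Bik (1.79) and Acsl4 (0.16). Over single libraries left out, values ran from -0.013 to 0.22 for Casp9, -0.090 to 0.40 for Apaf1, -6.23 to 0.083 for Casp1, -0.99 to 1.104 for Gsdmd, -0.017 to 1.301 for Pycard, -0.11 to 0.22 for Aim2, -0.18 to 0.070 for Bcl2l1, -0.073 to 0.22 for Bcl2l2, -0.075 to 0.34 for Mcl1, -0.27 to 0.65 for Bok, -0.47 to 0.083 for Bcl2l11, -1.90 to 1.68 for Bik and -0.39 to 0.091 for Acsl4. Depth limits the 7 untested members, which had at most 18 counts in a library.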
